A study of Homo sapiens with 4 samples.

Results

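The genes described here encode 9 nuclear receptors: the glucocorticoid receptor (NR3C1), oestrogen receptor alpha (ESR1), the pregnane X receptor PXR (NR1I2), the constitutive androstane receptor CAR (NR1I3), retinoid X receptor alpha (RXRA), retinoic acid receptors beta and gamma (RARB and RARG), the vitamin D receptor (VDR) and PPAR gamma (PPARG). They were chosen by name, as receptors for steroids, drugs, retinoids, vitamin D and fatty acids, and all 9 were found among the 26485 gene names of the deposited tables. The mRNA of 4 cultures of anaplastic thyroid cancer (ATC) cells was sequenced, with 1 library each: SW1736 wt, SW1736-PTX, 8505C wt and 8505C-PTX. SW1736 and 8505C are established human ATC lines. The wt cells received no drug, whereas the PTX cells had been exposed for 6 months to paclitaxel, a drug that stabilizes microtubules, rising from 1 nM to 1.5 µM, and were afterwards kept at 1.5 µM. All cultures were grown in RPMI-1640 with foetal bovine serum, which brings its own steroids and retinoids. The compound that the study abbreviates DHT is Dihydrotanshinone I, a diterpenoid of plant origin and not the steroid hormone of that abbreviation, and none of the 4 libraries came from cells treated with it.

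Nuclear receptors are transcription factors whose activity is switched by small lipophilic ligands. NR3C1 and ESR1 are held by chaperones until a steroid binds, and then act as homodimers. The retinoic acid, vitamin D and PPAR receptors sit on DNA as heterodimers with an RXR and recognise pairs of a short half-site. They exchange corepressors for coactivators when ligand is bound. The xenobiotic receptors PXR and CAR also bind DNA as heterodimers with an RXR. PXR and CAR are best known in liver and intestine, where they induce drug-metabolising enzymes and the drug efflux pump ABCB1, and paclitaxel is a known PXR ligand. RARB is itself a classical retinoic acid target, through a direct repeat in the promoter of one of its transcripts. The mRNA level of a receptor says nothing of its ligand or of its activity.

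The repeat of RARB is shown because RARB was the only one of the 9 genes that passed the limits for a change in both lines. The 250 bases before 1 of the 4 RARB starts in the RefSeq promoter table (GRCh38.p14, chr3:25428013-25428262, plus strand) are printed 5′ to 3′, with the 2 half-sites in capitals.
RARB promoter: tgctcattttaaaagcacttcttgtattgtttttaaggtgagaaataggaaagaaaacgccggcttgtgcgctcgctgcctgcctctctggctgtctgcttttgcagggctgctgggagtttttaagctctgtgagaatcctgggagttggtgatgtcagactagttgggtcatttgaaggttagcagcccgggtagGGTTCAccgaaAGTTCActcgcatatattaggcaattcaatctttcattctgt
The repeat at chr3:25428210-25428226 has 5 bases between its half-sites (a DR5) and begins 53 bases before the start. The half-site was searched as AGGTCA, its consensus spelling, and with common substitutions as AGTTCA, also as GGGTCA and further as GGTTCA, on both strands, as direct repeats with 1 to 5 bases between them, in windows from 250 bases before to 50 bases after each start. A DR5 of these spellings was in 0.0883% of the 35116 windows of all genes. Repeats with 1, 2, 3 and 4 bases between the half-sites were in 0.131%, 0.0399%, 0.0740% and 0.0854%. The RARB repeat was known beforehand, so these shares are no test of it. Of the 29 windows of 8 of the receptor genes, 1 window of RARB held a direct repeat with 1 to 5 bases between its half-sites and no other window did. VDR had no entry. Among the genes of the lists compared below, CYP26A1, which encodes a retinoic acid-degrading enzyme, was the other holder, with a DR5 on the opposite strand that begins 90 bases before its start (chr10:93073803-93073819).
CYP26A1 repeat: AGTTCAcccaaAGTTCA
The deposited tables give 1 value per gene and do not separate the RARB transcripts by start, so the level of the transcript that begins beside the repeat was not measured on its own.

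Levels are given in FPKM (fragments scaled to the transcript's length and to the library's depth), which allows genes to be compared per length. Where 4 values follow each other, their order is SW1736 wt, SW1736-PTX, 8505C wt and 8505C-PTX. A change was computed as log2((PTX + 0.1)/(wt + 0.1)), for genes with more than 0.5 FPKM in either library, and a gene was called when this was beyond 1.5 in either direction. With 1 library per culture there was no estimate of the spread between cultures and no test, so the words rose and fell are used for called genes only. The 95% intervals of ratios come from the reads that each FPKM implies and cover counting error only. The libraries held an estimated 43.5 to 57.9 M reads, derived from coverage and FPKM. At these depths, 3 reads on ESR1 correspond to 0.00819 to 0.0109 FPKM. A value of 0 is reported as listed at 0, since it can also be a failed estimate. More gene names were listed at 0 in SW1736 wt (10379) and 8505C wt (10241) than in SW1736-PTX (8485) and 8505C-PTX (8869). A rise from a listed 0 is therefore less certain than other calls.

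The library labelled SW1736-PTX went against its parent in the thyroid lineage factors PAX8, NKX2-1 and FOXE1, but not in HHEX. PAX8, a thyroid transcription factor, was at 38.2 FPKM in wt and 0.206 in PTX cells of SW1736, and at 0.123 and 0.146 in those of 8505C. NKX2-1, another, was listed at 0 in SW1736 wt and was at 36.3, 30.5 and 39.0 FPKM in the other 3 libraries. FOXE1 was at 26.6 FPKM in SW1736 wt and between 0.044 and 0.511 in the others. HHEX was at 12.4 FPKM in wt and 11.7 in PTX cells of SW1736, and at 5.92 and 14.4 in those of 8505C. The log2 change of HHEX in SW1736-PTX was -0.08 against SW1736 wt and 0.97 against 8505C wt. The summed FPKM of 8 thyroid markers was 77.2 for SW1736 wt and 48.8 for SW1736-PTX, and 36.6 for 8505C wt and 53.7 for 8505C-PTX, and TSHR and SLC5A5, which mark differentiated thyrocytes, were listed at 0 in all 4. Of 7 blood and endothelial markers, 1 to 3 were above 0.5 FPKM in a library, with summed FPKM of 5.88, 24.2, 78.0 and 48.4 in the same order. CD68, a macrophage marker among them, was at 5.84, 23.6, 21.7 and 43.0 FPKM. It rose in the SW1736 pair by a log2 of 1.99, and against 8505C wt its log2 change was 0.12. PTPRC, a leukocyte marker, and CD3E, a T cell marker, were at or below 0.020. An effect of paclitaxel selection on the library labelled SW1736-PTX and a different origin of its cells cannot be told apart, so the values of the 6 receptors compared, and the list calls that depend on the parent, are also given against 8505C wt.

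RARB rose in both pairs, and PPARG rose in the SW1736 pair alone. NR3C1, RXRA, VDR and RARG were expressed in all 4 libraries and passed the limit in neither pair. ESR1, NR1I2 and NR1I3 were below 0.5 FPKM in every library and were not compared. Thus 2 of the 6 genes compared rose in SW1736 and 1 of 6 rose in 8505C, and none fell. Of all genes compared, 15.7% rose and 10.2% fell in SW1736, 15.0% rose and 5.89% fell in 8505C, and 7.37% rose in both. At these shares, counts of 1 or 2 in 6 are near the background, and what follows is about the single genes. The same shares are the background of the list counts below, and no list was tested as a set. The median log2 change of the 6 genes was 0.14 in SW1736 and 0.80 in 8505C, against 0.01 and 0.11 for all genes compared. Since RNA came from whole cultures, a larger share of cells that express a receptor and more of its mRNA per cell cannot be told apart.

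**Figure D1:**
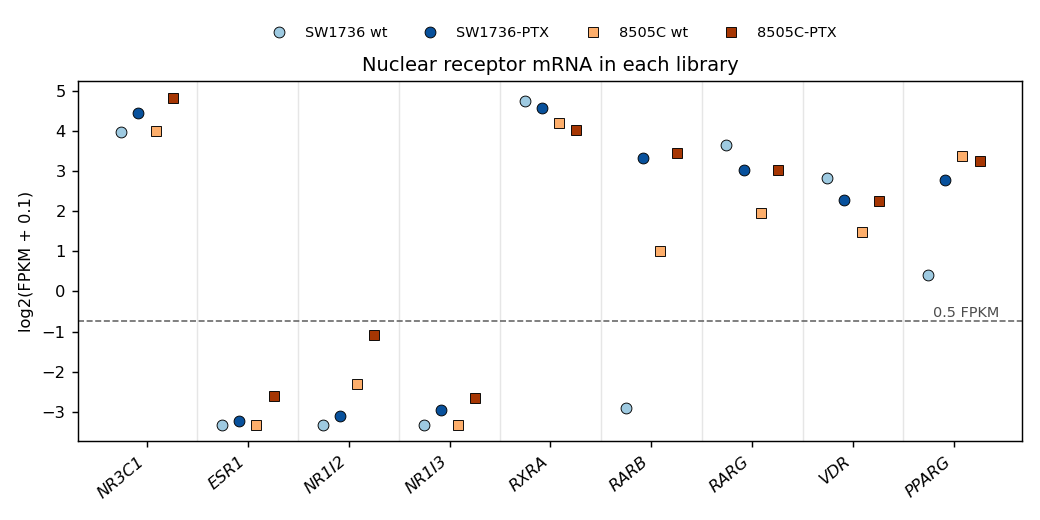
The level of each receptor mRNA is plotted as log2(FPKM + 0.1) on the y axis, with 1 point per library (circles SW1736, squares 8505C, light wt, dark PTX) and a dashed line at 0.5 FPKM. RARB lies above the line in 3 libraries and far below it in SW1736 wt (0.0333 FPKM), ESR1, NR1I2 and NR1I3 lie below it in every library, and NR3C1 and RXRA lie within narrow bands.

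Among the retinoid receptors, RARB (chr3:25174332-25597931, plus strand) showed the widest range. It was at 0.0333 FPKM in wt and 9.84 in PTX cells of SW1736, and at 1.92 and 10.9 in those of 8505C. The PTX libraries lie close to each other and above both wt libraries, which differ between themselves. RARB rose by a log2 of 6.22 in SW1736 and of 2.44 in 8505C. In 8505C the ratio was 5.67 (4.99 to 6.49). In SW1736 it was 296, with an interval of 129 to 930, because the wt value rests on an implied 5 reads. Set against 8505C wt, SW1736-PTX was higher in RARB by a log2 of 2.30, a ratio of 5.11 (4.50 to 5.85), so that RARB was called against either parent. In this comparison 20.4% of all genes compared were called. Among the 48 nuclear receptors ordered by FPKM, RARB moved from place 32 to place 14 between SW1736 wt and SW1736-PTX, and from 22 to 14 between 8505C wt and 8505C-PTX.

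RARG (chr12:53210566-53232256, minus strand), the retinoic acid receptor most typical of epithelia, did not follow RARB. It was at 12.4 FPKM in wt and 7.99 in PTX cells of SW1736, and at 3.77 and 8.04 in those of 8505C. The PTX values are nearly equal, and the wt values lie on either side of them. The log2 change was -0.63 in SW1736 (ratio 0.642, 0.598 to 0.689) and 1.07 in 8505C (ratio 2.13, 1.92 to 2.37), neither of which was called. Against 8505C wt, the log2 change of SW1736-PTX was 1.06, with the sign turned. RARA, the third member of the family, was at 11.9, 13.7, 13.0 and 21.4 FPKM in the order SW1736 wt, SW1736-PTX, 8505C wt and 8505C-PTX, and was called in neither pair.

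RXRA (chr9:134326463-134440586, plus strand), the shared heterodimer partner, was the steadiest of the 6 expressed receptors. It was at 26.9 FPKM in wt and 23.5 in PTX cells of SW1736, and at 18.3 and 16.2 in those of 8505C, within the 10 highest nuclear receptors of each library. Its ratio was 0.875 (0.847 to 0.904) in SW1736 and 0.883 (0.848 to 0.920) in 8505C, log2 changes of -0.19 and -0.18. Both ratios are below 1 by more than counting error, and how far cultures vary was not measured. Set against 8505C wt, RXRA in SW1736-PTX was higher, with a log2 of 0.36 and a ratio of 1.28 (1.24 to 1.33), so the direction turned with the parent used. RXRB was at 14.8 to 22.7 FPKM and RXRG was listed at 0 in all 4 libraries.

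The enzymes that make and degrade retinoic acid were compared next to the receptors. Of 15 genes of retinoid transport and metabolism, 8 were compared in each line. In SW1736, 2 rose and 2 fell, while 15.7% of all genes rose and 10.2% fell. In 8505C, 5 rose and none fell, while 15.0% of all genes rose and 5.89% fell. The medians of the list were 0.60 and 2.09. ALDH1A1 and LRAT rose in both lines. Against 8505C wt, 3 of the 8 rose in SW1736-PTX (DHRS3, LRAT and CYP26B1) and none fell, and the log2 change of ALDH1A1 was -1.43, so its direction turned. ALDH1A1, which oxidises retinal to retinoic acid, was listed at 0 in SW1736 wt and was at 0.616 FPKM in SW1736-PTX, 1.83 in 8505C wt and 7.52 in 8505C-PTX. LRAT, which esterifies retinol for storage, stayed low, from 0 to 0.557 FPKM.
DHRS3 and ALDH1A3 were called in opposite directions in the lines. DHRS3, a retinal reductase, was at 53.9 FPKM in wt and 12.8 in PTX cells of SW1736, and at 1.22 and 52.4 in those of 8505C. ALDH1A3, another retinal dehydrogenase, was at 47.1, 4.23, 1.86 and 10.7 FPKM. As with RARG, the wt libraries are the extremes of both genes, and both PTX libraries lie between them.
Of the retinoic acid-degrading enzymes, CYP26A1, with the repeat shown above, was listed at 0 in all 4 libraries. CYP26B1 was at 0.783 FPKM in wt and 1.24 in PTX cells of SW1736 and at 1.43 in 8505C-PTX, and was listed at 0 in 8505C wt. It rose in 8505C, by a log2 of 3.93, and was not called in SW1736 (0.60). CRABP2, the carrier that brings retinoic acid to its receptors, was at 1.05, 1.66, 0.618 and 1.70 FPKM, with log2 changes of 0.61 and 1.32 that were not called. The part of retinoic acid in these values and in the level of RARB was not tested.
Of 6 other genes known to respond to retinoic acid, 3 were compared in SW1736 and 2 in 8505C. RARRES2 rose in SW1736, and RARRES3 and TGM2 rose in 8505C. RARRES2 was listed at 0 in both wt libraries and was at 0.563 FPKM in SW1736-PTX and 0.238 in 8505C-PTX. Against 8505C wt, RARRES2, RARRES3 and TGM2 all rose in SW1736-PTX, by log2 changes of 2.73, 3.97 and 2.41. TGM2, a transglutaminase, was at 404 FPKM in wt and 419 in PTX cells of SW1736, and at 78.6 and 716 in those of 8505C. RARRES3, a phospholipase whose newer symbol is PLAAT4, was at 10.0, 27.6, 1.67 and 12.8 FPKM, so that its SW1736 log2 change of 1.45 lies just inside the limit and its 8505C change of 2.86 beyond it.

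**Figure D2:**
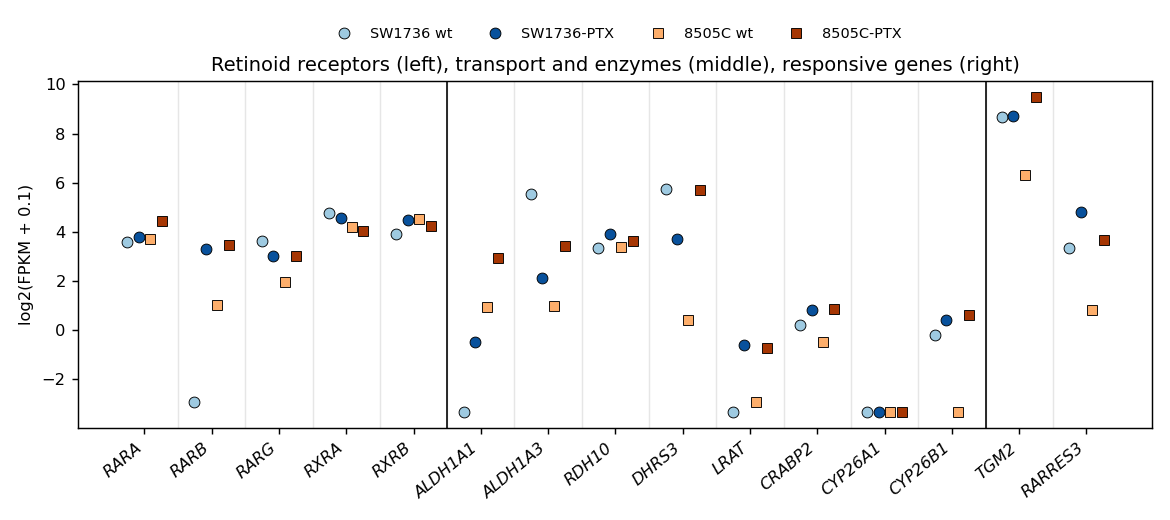
The y axis gives log2(FPKM + 0.1) for retinoid receptors, for genes of retinoid transport and metabolism and for retinoic acid responsive genes, with 1 point per library (circles SW1736, squares 8505C, light wt, dark PTX). RARB is lowest in SW1736 wt, where DHRS3 (53.9 FPKM) and ALDH1A3 (47.1) are highest, and CYP26A1 is listed at 0 in all 4 libraries.

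PPARG (chr3:12287850-12434356, plus strand), the fatty acid receptor that drives fat cell differentiation, rose in SW1736. It was at 1.24 FPKM in wt and 6.77 in PTX cells of SW1736, and at 10.4 and 9.41 in those of 8505C. SW1736 wt stands apart from the other 3 libraries, which lie within 6.77 to 10.4. The log2 change was 2.36 in SW1736 (ratio 5.48, 4.48 to 6.80) and -0.14 in 8505C (ratio 0.909, 0.825 to 1.00). Set against 8505C wt, however, the log2 change of SW1736-PTX was -0.61, so the call and its direction rest on the SW1736 wt library. PPARD, its widely expressed relative, was at 26.7, 22.2, 23.5 and 31.8 FPKM and was called in neither pair. PPARA, another relative, was at 2.71, 6.94, 1.94 and 6.67 FPKM. It rose in 8505C by a log2 of 1.73 and was not called in SW1736 (1.32). Against 8505C wt, PPARA rose in SW1736-PTX by a log2 of 1.78.
Few textbook targets of PPARG were above the minimum. Of 13, 6 were compared in SW1736, where CD36 and PDK4 rose and ANGPTL4 and LPL fell. In 8505C, 3 were compared, of which PDK4 and CPT1A rose and FABP5 fell. Of all genes, 15.7% rose and 10.2% fell in SW1736, and 15.0% rose and 5.89% fell in 8505C. Against 8505C wt, 4 of the 13 were compared in SW1736-PTX, where CD36, PDK4 and CPT1A rose and FABP5 fell. CD36 was listed at 0 in SW1736 wt and was at 1.21 FPKM in SW1736-PTX, 0.016 in 8505C wt and 0.387 in 8505C-PTX. FABP4, the fat cell lipid carrier, was at 0.240 FPKM in SW1736-PTX and 0.498 in 8505C-PTX and was listed at 0 in both wt libraries. ANGPTL4 was at 0.508 FPKM in SW1736 wt and at or below 0.052 elsewhere.
PDK4, a mitochondrial kinase that restrains glucose oxidation, was the gene of this list that rose in both lines. It was at 0.198 FPKM in wt and 0.893 in PTX cells of SW1736, and at 0.107 and 15.6 in those of 8505C. PDK4 is also a known target of glucocorticoids and of PPARA. Both SW1736 values and 8505C wt are below 1 FPKM, and 8505C-PTX stands apart. PPARGC1A, a coactivator of PPARG that was first described in brown fat, rose in both lines, with 0.656 FPKM in SW1736-PTX against a listed 0, and 1.04 in 8505C-PTX against 0.064.

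VDR (chr12:47841537-47905031, minus strand) was at 7.01 FPKM in wt and 4.73 in PTX cells of SW1736, and at 2.69 and 4.65 in those of 8505C. As for RARG, the PTX values are nearly equal and lie between those of the wt libraries. The log2 change was -0.56 in SW1736 (ratio 0.675, 0.627 to 0.728) and 0.77 in 8505C (ratio 1.73, 1.56 to 1.92), and neither was called. Against 8505C wt, that of SW1736-PTX was 0.79.
CYP24A1, which inactivates vitamin D and is the classical VDR target, was well expressed in all 4 libraries. It was at 63.9 FPKM in wt and 53.0 in PTX cells of SW1736, and at 53.5 and 20.1 in those of 8505C. Its log2 change was -0.27 in SW1736 and -1.41 in 8505C, just inside the limit. 8505C-PTX was thus lowest in CYP24A1, although its VDR level was above that of 8505C wt.
Of 10 vitamin D targets and enzymes, 2 of 6 compared rose in SW1736 (THBD and CYP27B1), while 15.7% of all genes rose. In 8505C, 4 of 7 rose (CD14, THBD, SPP1 and CYP2R1), while 15.0% of all genes rose. None of the list fell in either line. Against 8505C wt, 2 of 6 rose in SW1736-PTX (THBD and CYP2R1), and CYP27B1 was at a log2 change of -0.14. THBD, the gene that rose in both, encodes thrombomodulin, an endothelial anticoagulant receptor, and was at 0.960, 61.3, 15.3 and 53.4 FPKM. The endothelial marker CDH5 was at 0, 0.225, 55.9 and 4.53 FPKM in that order. PECAM1, of the same marker list, was at 0.013, 0.117, 0.077 and 0.281 FPKM, and VWF was at or below 0.086. Whether THBD goes with endothelial genes was not tested. CYP27B1, which makes the active hormone, was at or below 1.65 FPKM in every library. SPP1 was listed at 0 in both wt libraries and was at 0.336 FPKM in SW1736-PTX and 1.31 in 8505C-PTX.

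NR3C1 (chr5:143277931-143435512, minus strand), the glucocorticoid receptor, was abundant in every library, between places 4 and 8 of the 48 receptors. It was at 15.7 FPKM in wt and 21.9 in PTX cells of SW1736, and at 15.8 and 28.3 in those of 8505C. The wt libraries were alike and both PTX libraries were higher. The ratio was 1.40 (1.35 to 1.44) in SW1736 and 1.79 (1.72 to 1.85) in 8505C, log2 changes of 0.48 and 0.83 that were not called. Against 8505C wt, the log2 change of SW1736-PTX was 0.46, close to that against its own parent. Each of these is within the 1.5 limit and above counting error.
The 8 listed chaperones and cochaperones of steroid receptors were all compared in both lines. Of these, 1 fell in SW1736 and 4 fell in 8505C, while 10.2% and 5.89% of all genes fell. None of the 8 rose, and their medians were -0.57 and -1.41. Against 8505C wt, 2 fell in SW1736-PTX (HSP90AA1 and FKBP5), with a median of -1.06. HSP90AA1, the inducible HSP90, fell in both lines, to 327 FPKM from 1030 in SW1736 and to 274 from 1121 in 8505C. FKBP5, a cochaperone and also a glucocorticoid target, was at 16.9, 9.47, 31.1 and 6.31 FPKM in the order SW1736 wt, SW1736-PTX, 8505C wt and 8505C-PTX, and fell in 8505C.
More of the glucocorticoid targets rose than fell. Of 10 on the list, 8 were compared in SW1736, of which 5 rose and 1 fell, and 9 in 8505C, of which 5 rose and 1 fell, with medians of 1.91 and 1.69, while 15.7% and 15.0% of all genes rose. PER1, KLF9 and CEBPD rose in both lines. Against 8505C wt, however, 2 of the 8 rose in SW1736-PTX (TSC22D3 and KLF9) and 2 fell (FKBP5 and ERRFI1), with a median of 0.78, and the log2 changes of PER1 and CEBPD, 1.30 and 1.13, were not called. PER1, a circadian repressor, was at 0.949 FPKM in wt and 10.5 in PTX cells of SW1736, and at 4.20 and 13.7 in those of 8505C.
KLF9, a zinc finger repressor, was at 8.73, 30.7, 6.29 and 37.6 FPKM, and CEBPD, a leucine zipper factor, at 5.68, 25.7, 11.7 and 54.5. Both were higher in each PTX library than in either wt library. TSC22D3, the glucocorticoid-induced leucine zipper, was at 2.35, 4.78, 0.823 and 25.9 FPKM and rose in 8505C by a log2 of 4.82. DUSP1 was at 10.2 FPKM in SW1736 wt and at 277, 206 and 187 in the other 3 libraries. PER1, KLF9, CEBPD and DUSP1 also respond to stress and growth factor signals, and the part of NR3C1 in these values was not tested.
The enzymes that set the intracellular glucocorticoid level ranged from 0 to moderate values. HSD11B1, which regenerates cortisol, was listed at 0 in all 4 libraries. HSD11B2, which inactivates it, was at 0.323, 0.845, 0.179 and 0.734 FPKM. H6PD, which supplies the cofactor of HSD11B1, was at 3.52, 9.61, 1.05 and 11.7 FPKM. HSD11B2 and H6PD rose in 8505C and were inside the limit in SW1736. Against 8505C wt, both rose in SW1736-PTX, by log2 changes of 1.76 and 3.08.

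ESR1 (chr6:151690496-152103273, plus strand) was listed at 0 in both wt libraries and was at 0.00712 FPKM in SW1736-PTX and 0.0634 in 8505C-PTX. These levels imply 3 and 21 reads. No ratio was formed against a value of 0. The estimated depth was 48.9 M reads in wt and 57.9 in PTX cells of SW1736, and 43.5 and 53.6 in those of 8505C. At these depths 3 reads on ESR1 correspond to 0.00969 FPKM in SW1736 wt and 0.0109 in 8505C wt. The part of depth in the values of 0 was not tested. Of 10 oestrogen receptor partners and targets, 8 were compared in SW1736 and 7 in 8505C, and none was called in the same direction in both lines. TFF1, a classical target, was listed at 0 in all 4 libraries. GREB1, another, was at 0.030 FPKM in wt and 0.640 in PTX cells of SW1736, and at 0.007 and 0.351 in those of 8505C, and rose in SW1736. In 8505C its ratio was 51.2 (14.7 to 214), with an implied 3 reads in wt. Both 8505C levels were below 0.5 FPKM, so GREB1 was not compared there.
GATA3, which in breast cells opens chromatin for ESR1, was called in opposite directions in the lines. It was at 11.7 FPKM in wt and 2.31 in PTX cells of SW1736, and at 0.098 and 3.88 in those of 8505C. This is again the order in which the wt libraries are the extremes. AREG, an EGFR ligand, was also called in opposite directions. Against 8505C wt, both directions of SW1736-PTX turned, with GATA3 higher by a log2 of 3.61 and AREG at -2.21.

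The xenobiotic receptors were below 0.5 FPKM in every library. NR1I2 (chr3:119780484-119818485, plus strand), which encodes PXR, was listed at 0 in SW1736 wt and was at 0.0156 FPKM in SW1736-PTX, 0.104 in 8505C wt and 0.371 in 8505C-PTX. These levels imply 3, 13 and 56 reads, so NR1I2 was clearly detected in 8505C-PTX, where 3 reads correspond to 0.0200 FPKM. Within 8505C the ratio was 3.58, with a counting interval of 1.89 to 6.98, but both levels were below 0.5 FPKM and no call was made. NR1I3 (chr1:161229666-161238210, minus strand), which encodes CAR, was at 0.0293 FPKM in SW1736-PTX and 0.0579 in 8505C-PTX, an implied 2 and 4 reads, and was listed at 0 in both wt libraries. Neither receptor was above 0.5 FPKM in a library that was exposed to 1.5 µM paclitaxel.
ABCB1, the efflux pump that carries paclitaxel out of cells, was the most abundant PXR and CAR target of both PTX libraries. Its value in SW1736 wt was listed at 0, and it was at 302.3 FPKM in SW1736-PTX, 0.363 in 8505C wt and 497 in 8505C-PTX. ABCB1 thus rose in both pairs. Only 2 of the 16 genes of the PXR and CAR list were compared in both lines, ABCB1 and ALAS1, and ALAS1 was called in neither. ABCC2 was at 0.102, 0.643, 0.106 and 0.360 FPKM. In 8505C its ratio was 3.40 (2.20 to 5.34), but both levels were below 0.5 FPKM and it was not compared. The part of PXR and CAR in the level of ABCB1 was not tested. In all, 4 of the 16 were compared in SW1736 (ABCB1 and ABCC2 rose, ABCC3 fell, and all 3 were called higher against 8505C wt) and 2 in 8505C (ABCB1 rose), and 10 to 12 of the 16 were listed at 0 in a library. CYP3A4, the enzyme by which PXR activity is usually read, was at 0.013 FPKM in SW1736-PTX and listed at 0 in the other 3 libraries. CYP2B6, the usual CAR target, was listed at 0 in all 4 libraries. ABCC3, a conjugate pump, was at 3.68, 0.545, 0 and 0.156 FPKM.

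**Figure D3:**
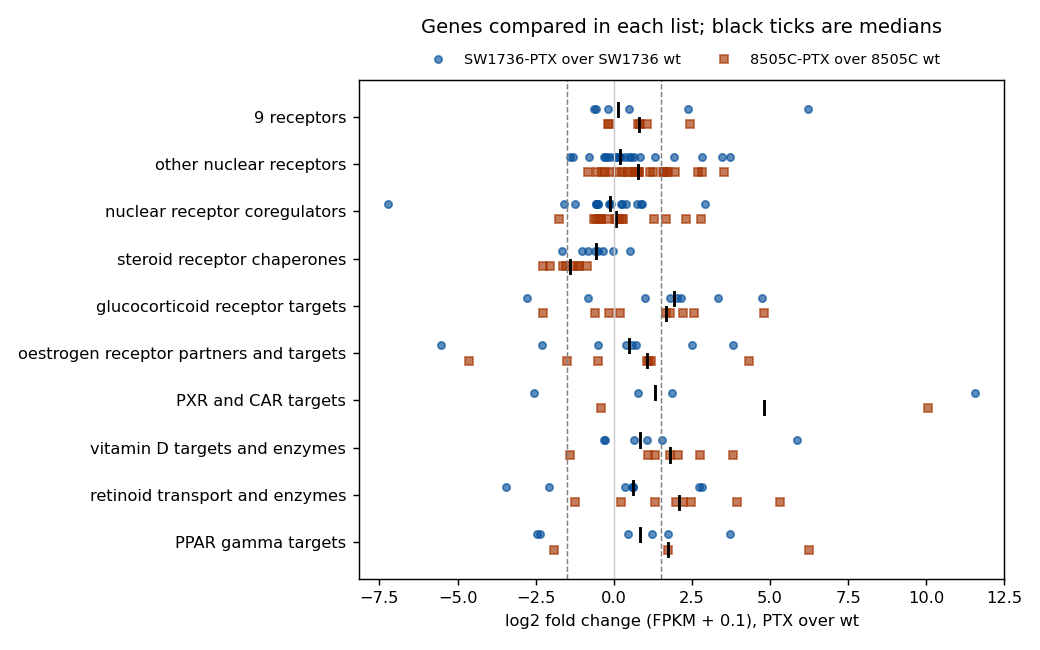
Each point is 1 gene compared in a list (circles SW1736-PTX over SW1736 wt, squares 8505C-PTX over 8505C wt), placed on the x axis by its log2 fold change of FPKM + 0.1, with a black tick at the median and dashed lines at -1.5 and 1.5. The glucocorticoid targets lie mostly to the right (medians 1.91 and 1.69), the chaperones to the left (-0.57 and -1.41), and in the PXR and CAR list ABCB1 alone lies near 10 or beyond.

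Among the other 39 nuclear receptors, 23 were compared in SW1736 and 25 in 8505C. Of these, 4 and 8 rose, while 15.7% and 15.0% of all genes rose. None of these receptors fell in either line, while 10.2% and 5.89% of all genes fell. The median log2 changes were 0.20 and 0.78, near the 0.14 and 0.80 of the genes studied here. RORA, NR4A1 and NR4A2 rose in both lines, as RARB did. Against 8505C wt, NR4A1 and NR4A2 were still called in SW1736-PTX, with log2 changes of 1.61 and 2.85, whereas RORA was not, with 1.36. RORA, a constitutively active receptor with circadian targets, was at 0.005 FPKM in wt and 1.27 in PTX cells of SW1736, and at 0.435 and 1.97 in those of 8505C. NR4A1 and NR4A2 are immediate-early genes with no known endogenous hormone. NR4A1 was at 1.14, 4.59, 1.43 and 4.48 FPKM, and NR4A2 at 0.689, 5.46, 0.670 and 2.33. With a pseudocount of 1 in place of 0.1, NR4A2 in SW1736 was the only call left of these 3 genes, while RARB stayed called in both lines.
RORA, like RARB, was almost absent from SW1736 wt and intermediate in 8505C wt. The abundant receptors, above 10 FPKM in at least 1 library, were THRA, RARA, RXRB, PPARD, NR1D1, NR1D2, NR1H2, NR2C2, NR2F1, NR2F2, NR2F6 and ESRRA beside NR3C1, RXRA, PPARG, RARB and RARG. NR2F1, an orphan receptor of development, was at 12.0, 16.8, 31.5 and 74.5 FPKM, the highest of the 48 in 8505C-PTX. NR1D1, a circadian repressor, was at 10.0, 10.5, 3.22 and 23.3 FPKM and rose in 8505C.
In all, 24 of the 48 receptors were above 0.5 FPKM in all 4 libraries, among them NR3C1, RXRA, VDR, PPARG and RARG. A further 16 were at or below it in all 4, among them ESR1, NR1I2 and NR1I3, and RARB belongs to the remaining 8. The 9 receptors summed to 63.3 FPKM in wt and 74.8 in PTX cells of SW1736, and to 53.0 and 77.9 in those of 8505C.

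**Figure D4:**
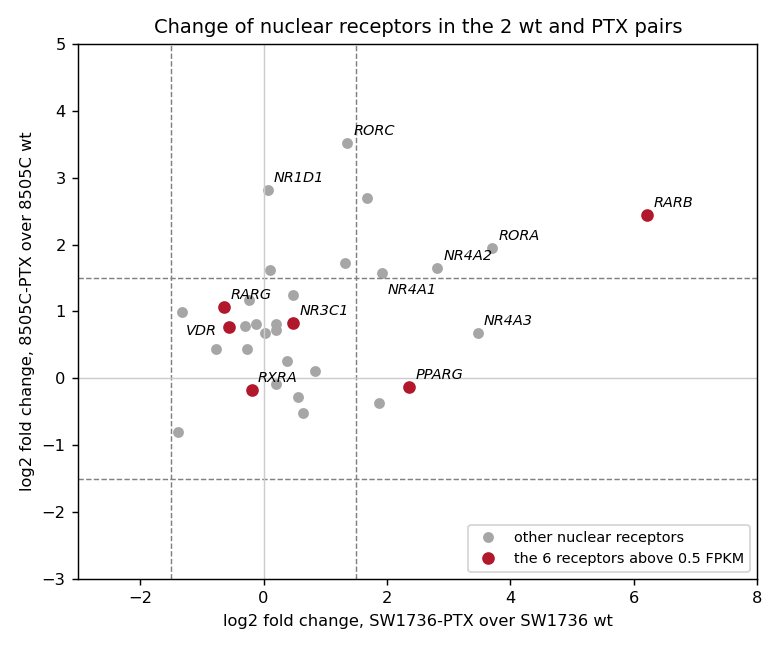
Each nuclear receptor above 0.5 FPKM in at least 1 library of a pair is placed by its log2 fold change in SW1736 (x axis) and in 8505C (y axis), with dashed lines at -1.5 and 1.5. RARB (6.22 and 2.44) lies in the upper right with RORA, NR4A1 and NR4A2 (an unlabelled point there, RORB, was below 0.5 FPKM in both SW1736 libraries), PPARG (2.36 and -0.14) passes the limit in SW1736 alone, and no receptor lies beyond -1.5 in either line.

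The coregulators through which these receptors act were mostly inside the limits. All 18 were compared in both lines, and 1 rose and 2 fell in SW1736, and 3 rose and 1 fell in 8505C. Their medians were -0.12 and 0.08. Of all genes, 15.7% rose and 10.2% fell in SW1736, and 15.0% rose and 5.89% fell in 8505C. Against 8505C wt, PPARGC1A and TBL1X rose and NRIP1 fell in SW1736-PTX. NRIP1, a corepressor of liganded receptors and a known oestrogen and retinoic acid target, fell in SW1736. It was at 18.4 FPKM in wt and 0.024 in PTX cells of SW1736, and at 10.6 and 6.78 in those of 8505C. The library labelled SW1736-PTX stands apart from the other 3 in NRIP1, also from 8505C wt.

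Between the lines, the receptors were further apart in the wt libraries than in the PTX libraries. In 8505C wt against SW1736 wt, PPARG and RARB were called higher and RARG lower, 3 of 6 genes compared, while 17.6% of all genes were called in either direction. In 8505C-PTX against SW1736-PTX none of the 6 was called, while 7.79% of all genes were. The median absolute log2 difference of the 6 receptors was 1.52 between the wt libraries (0.015 to 3.92) and 0.26 between the PTX libraries (0.009 to 0.54). For all genes compared it was 0.56 between the wt and 0.33 between the PTX libraries, so it was smaller there as well.
RARG differed by a log2 of -1.69 between the wt libraries and of 0.01 between the PTX libraries, VDR by -1.35 and -0.02, and RARB by 3.92 and 0.15. NR3C1 was the exception, with 0.02 between the wt and 0.37 between the PTX libraries. RXRA kept its difference, with -0.55 and -0.54.

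The genes whose pattern over the 4 libraries was most like that of RARB were RNF150, ULK2 and LMO2, at Euclidean distances of 0.441, 0.502 and 0.517 in centred log2(FPKM + 0.1) among 14692 genes. RNF150 was listed at 0 in SW1736 wt and was at 5.74 FPKM in SW1736-PTX, 0.888 in 8505C wt and 6.63 in 8505C-PTX. ULK2 was at 0, 7.71, 2.19 and 11.3 FPKM, and LMO2 at 0, 7.05, 1.00 and 9.80. These 3 genes share with RARB a value at or near 0 in SW1736 wt.
For PPARG they were PWARSN, ZNF620 and ENOSF1, at distances of 0.124, 0.146 and 0.210. ENOSF1 was at 0.380, 2.24, 3.25 and 3.61 FPKM, and ZNF620 at 0.182, 1.21, 2.12 and 1.97. PWARSN was at or below 0.680 FPKM in every library. All 6 were found by their distance over 4 points, and the patterns of many genes are alike over so few.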

How the data were processed

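The mRNA of 4 cultures of established cell lines was sequenced as single-end reads of 75 bp. The authors demultiplexed the reads (bcl2fastq 2.20, per the labels), masked adapters with Cutadapt 1.11, trimmed low-quality bases with ERNE, aligned to hg38 with STAR and quantified genes with StringTie. The versions of the last 3 tools and the annotation are not given in the sources used here. The authors deposited the coverage signal (mean reads per base, not scaled for depth), the FPKM and the TPM (scaled to an equal total) of each gene. The files hold no read counts. FPKM were the values used, and TPM served as an alternative. Depth was estimated from coverage, as an upper quantile of its ratio to FPKM over genes above 0.5 FPKM. In genes with several transcripts, such as RARB and PPARG, coverage appeared averaged over a longer length, and FPKM was taken as the level.

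FPKM of the rows of a gene name were summed, and log2 ratios with a pseudocount of 0.1 were called beyond 1.5 where either library was above 0.5 FPKM. Both limits are those of the study's methods. Intervals of ratios are exact binomial intervals on the reads implied by FPKM, depth and transcript length (GENCODE release 44). The calling step was run on simulated libraries with counting error only, where changed genes were well above the FPKM minimum and far beyond the limit. It therefore does not show how reliable calls near these limits are, nor how far cultures vary. Python 3.11.15, NumPy 2.4.6, pandas 2.3.3, SciPy 1.17.1 and matplotlib 3.10.9 were used.

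The 9 receptors and the 15 gene lists, which come from textbook knowledge, were chosen with earlier results of these data known. By the rule for names, the text gives the 9 receptors, other nuclear receptors called alike in both lines or above 10 FPKM, list genes called alike in both lines, 14 genes fixed for their role (ABCB1, CYP3A4, CYP24A1, CYP26A1, CYP26B1, FKBP5, TSC22D3, HSD11B1, HSD11B2, TFF1, GREB1, FABP4, ANGPTL4 and CRABP2) and the 3 genes nearest in pattern to a called receptor. Other names, such as DHRS3, ALDH1A3, TGM2, GATA3, NRIP1 and DUSP1, were chosen after their values were seen. Alternatives changed the pseudocount, the unit, the centring, the rows used, the FPKM minimum, the limit and the reference of SW1736-PTX. Leaving out a library was not possible with 1 per culture. Some members of the lists are not reported by name here.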

Additional observations from a re-analysis of the deposited data

Results flagged for a closer look

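In 3 of the receptors the log2 changes of the 2 lines had opposite signs. The 8505C change minus the SW1736 change was 1.33 for VDR, -2.50 for PPARG and 1.70 for RARG. Each line has 1 library of each kind, so these differences were not tested. Of the 6 single changes, that of PPARG in SW1736 (2.36) was called and the other 5 were inside the limit. With 8505C wt as the reference of SW1736-PTX, the changes of VDR and RARG were 0.79 and 1.06, the same sign as in 8505C, and that of PPARG was -0.61, also the sign of 8505C.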

How the results depend on the processing

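RARB was called in both lines with pseudocounts of 0.01 and 1, with TPM, with centring and with the highest row of a gene name, and its log2 change ranged over these from 3.39 to 7.83 in SW1736 and from 2.03 to 2.50 in 8505C. Over the same settings that of PPARG in SW1736 ranged from 1.80 to 2.44, and no sign of a compared receptor changed. With 8505C wt as the reference of SW1736-PTX, PPARG turned to -0.61, the uncalled changes of RXRA, VDR and RARG turned to 0.36, 0.79 and 1.06, and 1 receptor (RARB) was called in place of 2. With both libraries above 0.5 FPKM required, 1 (PPARG) was called in SW1736. With a limit of 1, RARG joined RARB in 8505C and against 8505C wt, giving 2 in each. Between the PTX libraries, TPM and no FPKM minimum each gave 1 call (NR1I2) in place of 0. Among the other nuclear receptors, the 4 called in SW1736 became 1 with a pseudocount of 1, 2 with both libraries above the minimum, 7 with no minimum and 7 with a limit of 1. The 8 called in 8505C became 1 with a pseudocount of 1, 5 with both libraries above the minimum and 3 with a limit of 2. The cause was not tested. The values of ESR1, NR1I2 and NR1I3 rest on an implied 0 to 56 reads, and the part of depth in them was not tested. No paired analysis was possible because each group is 1 library.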
